A study of Mus musculus with 9 samples.

Results

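Gut epithelial organoids of Apc-mutant mice were compared between tumor tissue under the drug sulindac and the normal-appearing gut beside the tumors, to describe what sets the treated tumor epithelium apart from non-tumor epithelium. Organoids are epithelial cultures that grow in a gel from isolated crypts. The MIN group held organoids from the normal adjacent gut of APCmin/+ mice, which carry 1 truncated allele of the tumor suppressor gene Apc in every cell. The adenoma group held organoids from the polyps of such mice, and the sulindac group held adenoma organoids treated with sulindac, a non-steroidal anti-inflammatory drug (NSAID). Each group had 3 samples, so 6 of the 9 samples of the series entered this comparison, and the 3 untreated adenoma samples served as a reference for single genes. All cultures were grown in the same medium, with Noggin, EGF, bFGF, R-spondin1 and B27, so that MIN and tumor organoids alike received the Wnt agonist R-spondin1. The dose and duration of sulindac, its vehicle, the age and sex of the mice, and the mouse behind each culture are not given in the sources used here. The study calls the samples of a group biological replicates, but whether the spread that the p-values measure lies between mice or between cultures of 1 mouse is not known. No MIN culture was treated, so in this comparison the tumor state and the drug cannot be told apart. Values set beside untreated adenoma show which differences were also there without the drug. All genes that passed a filter on low counts were members, 13551 of the 23955 symbols in the count table.

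The renewal of the gut epithelium depends on Wnt signaling in the crypt. Apc is part of the complex that marks beta-catenin for destruction, and when the second allele is lost beta-catenin accumulates and drives Wnt target genes, which keeps crypt cells in a progenitor state and gives rise to adenomas. In the normal epithelium the progeny of stem cells become absorptive enterocytes, or secretory Paneth, goblet, enteroendocrine and tuft cells. Sulindac is known as an inhibitor of the cyclooxygenases COX-1 and COX-2, which are encoded by Ptgs1 and Ptgs2 and make the precursor of prostaglandins, and it is known to reduce polyps in mice and in patients with familial adenomatous polyposis.

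The 6 libraries held 30881206 to 48412477 counts. The level of a gene is stated in CPM, its counts divided by the TMM-scaled library total in units of 1000000 counts, with the scaling taken over the 9 samples, and 3 counts, the floor used here, lay between 0.0641 and 0.10 CPM. Tests are those of edgeR's quasi-likelihood method, and a gene was called at a false discovery rate (FDR) of 1% over all genes tested. A log2 fold change is sulindac-treated adenoma over MIN unless another pair is named. Of the 13551 genes tested, 3114 (23.0%) were higher in sulindac-treated adenoma than in MIN and 3625 (26.8%) were lower. Over all these genes the log2 fold changes had a median of -0.03. For 9425 of the 13551 genes the MIN and sulindac samples did not overlap in CPM, so a lack of overlap was common. Among the called genes, 240 were higher and 852 were lower by more than 16-fold. For untreated adenoma against MIN, 18.5% of 13744 genes were higher and 20.1% were lower. Between sulindac-treated and untreated adenoma, 8.32% of 12962 genes were higher and 9.10% were lower, so that 47.8% of these calls were higher. With library size alone as the scaling that share was 23.3%. Counts of list members below are to be read against the shares over all genes in the same comparison. In bulk samples such as these, fewer cells of a type and less RNA per cell cannot be told apart.

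**Figure D1:**
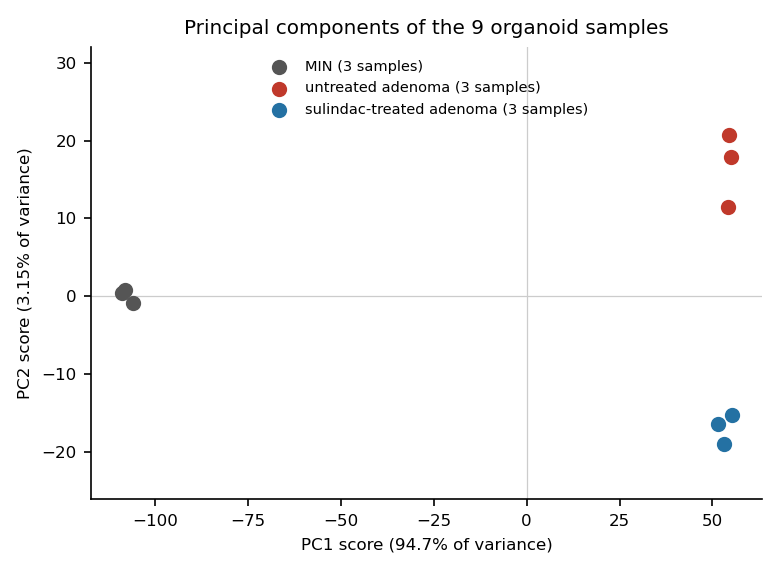
Principal component scores of the 9 samples, from the log2 CPM of the 500 most variable genes, with PC1 on the horizontal axis (94.7% of the variance) and PC2 on the vertical axis (3.15%); each point is a sample, 3 per group. Untreated and sulindac-treated adenoma samples lay together on PC1, far from MIN, and were separated on PC2.

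A principal component analysis of the 9 samples placed the sulindac-treated samples beside untreated adenoma and far from MIN. On the first component the scores ranged from -109 to -106 in MIN, from 54.3 to 54.9 in adenoma and from 51.4 to 55.1 under sulindac. On the second component MIN had -0.79 to 0.77, adenoma had 11.5 to 20.7 and sulindac had -18.9 to -15.2. No group overlapped another on the second component, which held 3.15% of the variance.

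The labelled tissue was checked against its markers. Of 8 epithelial markers 1 was higher under sulindac than in MIN (Krt18) and 6 were lower, against 23.0% and 26.8% of all genes. Krt8, the partner of Krt18, had 1567, 1712 and 2702 CPM in MIN and 1840, 1353 and 1370 CPM under sulindac and was not called, while Krt19 was lower (log2 fold change -0.95, adjusted p = 0.00642, edgeR), a call lost without MIN replicate 2 or sulindac replicates 2 or 3 and in the fit with a replicate block. Epcam, an adhesion molecule of all gut epithelial cells, had 949, 1036 and 1185 CPM in the MIN samples and 536, 621 and 508 CPM in the sulindac samples, so it was abundant in both and lower under sulindac (log2 fold change -0.93, standard error 0.12, adjusted p = 0.000152, edgeR). Ptprc, the pan-leukocyte antigen CD45, had 0, 1 and 0 counts in MIN and 0 counts in each sulindac sample. The 12 leukocyte markers together had 4.57 to 6.35 CPM in the MIN samples, 8.41 to 16.9 CPM in untreated adenoma and 3.39 to 4.73 CPM under sulindac, and 9 and 7 of them were at the floor in all MIN and all sulindac samples. Most of the sum came from Cd68 and Itgam. Itgam had 3.31 to 4.03 CPM in MIN, 0.116 to 0.365 CPM in untreated adenoma and 0 to 0.167 CPM under sulindac. Against MIN its log2 fold change under sulindac was -6.08 (adjusted p = 8.5e-05, edgeR), and -10.16 without sulindac replicate 1. Of the 50-base stretches of Itgam, 66.3% also lie in transcripts of other genes, so its counts are uncertain. Cd68, a lysosomal protein of macrophages, had 1.61, 1.13 and 2.26 CPM in MIN and 3.90, 2.84 and 3.20 CPM under sulindac. Its log2 fold change of 1.00 was not called (adjusted p = 0.0159, edgeR) and passed the threshold with a replicate block, with DESeq2 and without MIN replicate 3 (log2 fold change 1.27, adjusted p = 0.00275, edgeR). The 13 mesenchymal and endothelial markers summed to 4.40 to 4.96 CPM in MIN, 2.58 to 3.70 CPM in untreated adenoma and 1.41 to 1.92 CPM under sulindac, with the collagen genes Col1a2 and Col3a1 at 0 in every library. Pdgfrb, a receptor of pericytes and fibroblasts, had 3.46 to 3.76 CPM in MIN and 0 counts in every treated sample (at least 38.4-fold lower). Pecam1 of endothelial cells had 15, 16 and 18 counts in MIN and 1, 2 and 0 counts under sulindac, and Col1a1 had 13, 10 and 22 and 11, 13 and 17 counts. Pdgfra was higher under sulindac than in MIN, with 5, 8 and 6 counts in MIN and 20, 12 and 20 counts under sulindac, a call lost without MIN replicates 1 or 2 or sulindac replicates 1 or 3. In untreated adenoma Pdgfrb had 1, 0 and 0 counts, Pecam1 had 2, 4 and 3, Col1a1 had 40, 32 and 54 and Pdgfra had 28, 39 and 25. The part of the cells with such markers in the results below was not tested. The 12 gastric markers summed to 6.20 to 8.18 CPM in MIN, 1.99, 10.3 and 5.12 CPM in untreated adenoma, which overlapped MIN, and 0.333 to 0.887 CPM under sulindac. Gkn3 (gastrokine 3) and Atp4a, the proton pump subunit, had 109, 183 and 96 and 101, 133 and 121 counts in MIN and 0, 0 and 0 and 1, 2 and 0 counts under sulindac. In untreated adenoma they had 3, 6 and 5 and 4, 7 and 8 counts, so most of the gastric sum there came from other members of the list. Of 5 gastric markers tested between untreated adenoma and MIN, 2 were higher and 3 were lower, against 18.5% and 20.1% of all genes. Of 2 tested between sulindac-treated and untreated adenoma, 0 were higher and 2 were lower, against 8.32% and 9.10% of all genes.

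Apc itself had 179, 175 and 168 CPM in MIN and 229, 206 and 234 CPM under sulindac. The groups did not overlap, and the fitted change was 0.36 on the log2 scale (standard error 0.09, adjusted p = 0.00604, edgeR), but the call was lost when any of MIN replicates 1 or 2 or sulindac replicates 1 or 3 was left out (0.37, 0.36, 0.33 and 0.32, adjusted p = 0.016, 0.0222, 0.0273 and 0.0259, edgeR). The call for Apc was also lost in a fit of all 9 samples (0.36, adjusted p = 0.157, edgeR) and with library size alone (0.33, adjusted p = 0.0118, edgeR). Gene counts do not show which Apc allele was transcribed. Csnk1a1, the casein kinase that primes beta-catenin for destruction, had 326, 337 and 376 CPM in MIN and 558, 533 and 539 CPM under sulindac (log2 fold change 0.65, standard error 0.09, adjusted p = 0.000265, edgeR). Xist, the RNA that silences 1 X chromosome in female cells, was singled out after its values were seen. It had 1766, 1604 and 2824 CPM in the MIN samples, 0.477, 0.475 and 0.607 CPM in adenoma and 0.567, 0.336 and 1.72 CPM under sulindac. The Y-linked gene Ddx3y had 1, 0 and 0 counts in MIN, 4, 3 and 0 counts in adenoma and 15, 4 and 0 counts under sulindac, and Eif2s3y had 0 counts in all 9 samples. Xist therefore separated MIN from both tumor groups while Y-linked genes were near 0 in all 3 groups, and the part of this difference in the other results was not tested.

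**Figure D2:**
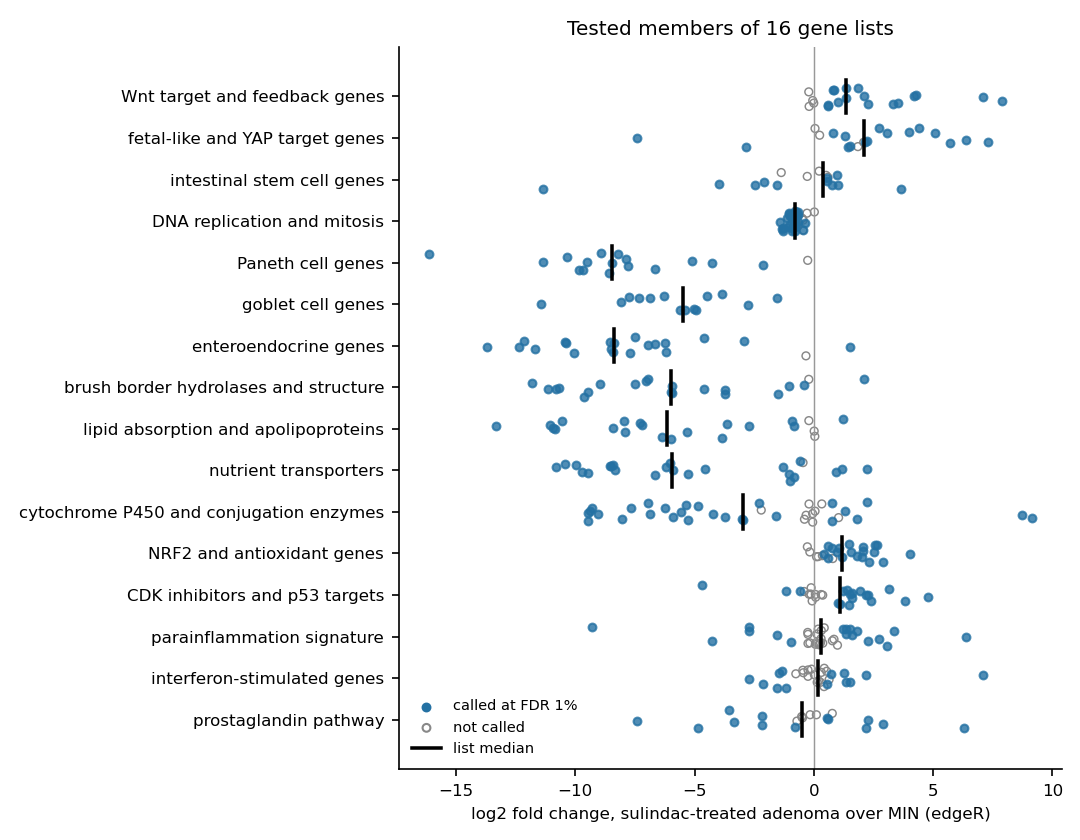
Log2 fold changes of sulindac-treated adenoma over MIN (horizontal axis, edgeR) for the tested members of 16 gene lists; each point is a gene, filled where called at an FDR of 1%, and the bar is the list median. Medians of the lineage lists lay below 0 and those of the Wnt, fetal-like and NRF2 lists above 0, and genes of the parainflammation, interferon and prostaglandin lists lay on both sides; fitted values of genes at 0 counts in 1 group depend on edgeR's prior count.

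Wnt target and feedback genes were higher in sulindac-treated adenoma than in MIN. Of 24 listed genes 20 passed the filter, and of these 16 were higher and 0 were lower (3 without MIN replicate 3), against 23.0% and 26.8% of all genes, and the list median was a log2 fold change of 1.34 against -0.03 over all genes. Notum, a secreted lipase that removes the lipid of Wnt ligands, had 0.608, 0.812 and 0.681 CPM in MIN and 147, 179.6 and 173 CPM under sulindac. Every sulindac sample was far above every MIN sample (log2 fold change 7.87, standard error 0.15, adjusted p = 6.03e-09, edgeR). Untreated adenoma had 275, 393 and 394 CPM, so the treated cultures lay between the other groups, and their level fell below that of untreated adenoma (log2 fold change -1.08, standard error 0.15, adjusted p = 0.00143, edgeR, sulindac over adenoma). Nkd1, an intracellular brake on Wnt signaling, had 2.70, 3.35 and 1.77 CPM in MIN and 227, 462 and 383 CPM under sulindac (log2 fold change 7.08, standard error 0.35, adjusted p = 1.14e-06, edgeR), beside 626, 848 and 759 CPM in untreated adenoma. Axin2, the scaffold of the beta-catenin destruction complex and itself a Wnt target, had 291, 267 and 152 CPM in MIN and 563, 644 and 602 CPM under sulindac (log2 fold change 1.34, standard error 0.22, adjusted p = 0.000944, edgeR). Ccnd1, which encodes cyclin D1, had 208, 229.7 and 245 CPM in MIN and 565, 601 and 572 CPM under sulindac (log2 fold change 1.34, standard error 0.09, adjusted p = 4.26e-06, edgeR). Myc, another Wnt target, had 149.5, 168 and 175 CPM in MIN and 183, 171 and 138 CPM under sulindac, and the 95% interval of its log2 fold change ran from -0.27 to 0.26. Ephb2, a receptor that sorts crypt cells, had an interval from -0.53 to 0.10 and was called as lower only without MIN replicate 3 (log2 fold change -0.35, adjusted p = 0.0093, edgeR). Against untreated adenoma, 1 of 23 tested members was higher under sulindac and 10 were lower, against 8.32% and 9.10% of all genes, with a median of -0.58.

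The intestinal stem cell genes were split. Of 16 tested members 6 were higher than in MIN and 5 were lower, against 23.0% and 26.8% of all genes, and the median was 0.37. Tnfrsf19 (Troy), a receptor of crypt base stem cells, had 44.1, 32.4 and 24.4 CPM in MIN and 324, 507 and 425 CPM under sulindac (log2 fold change 3.63, standard error 0.25, adjusted p = 6.82e-06, edgeR). Sox9, a transcription factor of progenitors and Paneth cells, had 66.3, 67.2 and 58.7 CPM in MIN and 143, 130.0 and 119 CPM under sulindac (log2 fold change 1.03, standard error 0.10, adjusted p = 3.15e-05, edgeR). Cd24a, a surface glycoprotein and the stem cell list member with the most counts, had 427, 489.8 and 477 CPM in MIN and 525, 762 and 708 CPM under sulindac and was called as higher only in some settings (log2 fold change 0.51, adjusted p = 0.0112, edgeR; 0.65 and 0.00189 without sulindac replicate 1). Lgr5, the R-spondin receptor that marks crypt base stem cells, moved the other way. It had 264, 227 and 189 CPM in MIN and 39.2, 73.2 and 46.5 CPM under sulindac (log2 fold change -2.10, standard error 0.23, adjusted p = 9.31e-05, edgeR), and 118, 122 and 77.0 CPM in untreated adenoma, a level that lay between the others and was not told apart from the treated one at an FDR of 1% (log2 fold change of sulindac over adenoma -0.99, adjusted p = 0.016, edgeR). Msi1, an RNA-binding protein of progenitors, had 13.8, 15.6 and 11.8 CPM in MIN, 2.47, 6.23 and 4.11 CPM in untreated adenoma and 0.50, 1.25 and 0.844 CPM under sulindac, and the treated samples were lower than either group (log2 fold change -3.98 against MIN and -2.29 against adenoma; adjusted p = 6.36e-06 and 0.00436, edgeR). Olfm4, a secreted glycoprotein of the stem cell zone, had 1407, 1595 and 658 CPM in MIN and 0.0667, 0.0306 and 1.25 CPM under sulindac. Its log2 fold change was -11.34, and -14.54 without sulindac replicate 3 (adjusted p = 8.63e-06, edgeR). In counts the treated samples held 2, 1 and 43.

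Genes of the fetal-like, regenerative state of the gut and of the transcriptional coactivator YAP were mostly higher. Of 20 tested members 14 were higher and 2 were lower (1 without sulindac replicate 2), against 23.0% and 26.8% of all genes. The median was 2.11. Il33, an alarmin cytokine on this list and on the parainflammation list, had 1.75, 0.769 and 1.31 CPM in MIN and 79.9, 112 and 126 CPM under sulindac (log2 fold change 6.38, standard error 0.29, adjusted p = 7.43e-07, edgeR). Untreated adenoma had 172, 251 and 208 CPM, and the treated level was lower (log2 fold change -0.98, adjusted p = 0.00537, edgeR). Krt7, a keratin of ducts and fetal gut, had 214, 220.3 and 299 CPM in MIN and 436, 416 and 420.4 CPM under sulindac (log2 fold change 0.79, standard error 0.13, adjusted p = 0.000757, edgeR). Anxa3, an annexin, had 44.1, 40.6 and 152 CPM in MIN and 306, 209 and 333 CPM under sulindac, and was called only without MIN replicate 3 among the samples left out (log2 fold change 1.84, adjusted p = 0.0108, edgeR; 2.73 and 2.22e-05 without it). The members that were lower than in MIN were Anxa10, a member of the annexin family, with 19.7, 16.1 and 30.0 CPM in MIN and 0.10, 0.0306 and 0.233 CPM under sulindac, and Sprr1a, a cornified envelope protein, with 29.7, 30.1 and 94.7 CPM in MIN and 6.30, 6.14 and 9.13 CPM under sulindac. The log2 fold change of Anxa10 was -7.43, and -8.35 without sulindac replicate 3 (adjusted p = 3.44e-06, edgeR). For Sprr1a it was -2.83, and -2.06 without MIN replicate 3, and the call was lost without sulindac replicate 2 (adjusted p = 0.0121, edgeR) and without the low-count filter (adjusted p = 0.0172, edgeR).

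**Figure D3:**
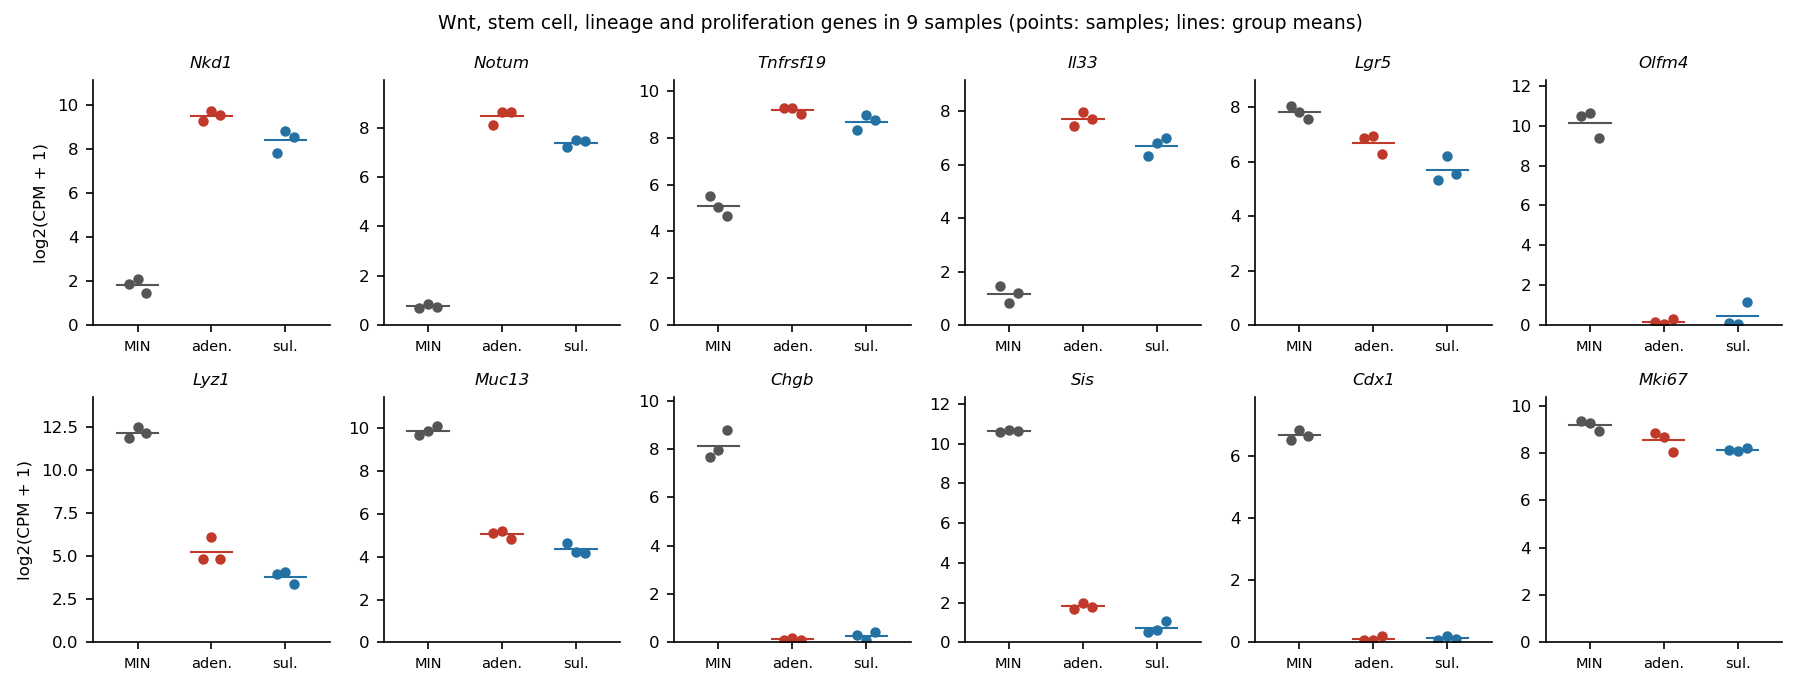
Expression of 12 Wnt, stem cell, lineage and proliferation genes as log2(CPM + 1) on the vertical axis, in MIN, untreated adenoma (aden.) and sulindac-treated adenoma (sul.); points are samples, 3 per group, and lines are means of the plotted values. Nkd1, Notum, Tnfrsf19 and Il33 were high in both tumor groups, and Olfm4, Lyz1, Muc13, Chgb, Sis and Cdx1 were high in MIN.

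Most tested markers of Paneth, goblet and enteroendocrine cells were lower in the sulindac-treated cultures than in MIN, while tuft cell markers were mixed. Of 17 tested Paneth cell genes, 0 were higher and 16 were lower than in MIN, against 23.0% and 26.8% of all genes. The median log2 fold change was -8.46 (-8.22 with genes at the floor set to their bound). Lyz1, the lysozyme of Paneth cell granules, had 3740, 5750 and 4565 CPM in MIN and 14.6, 16.1 and 9.34 CPM under sulindac (log2 fold change -8.46, standard error 0.30, adjusted p = 1.84e-07, edgeR). Itln1, an intelectin that binds microbial glycans, had 3608, 4375 and 3700 CPM in MIN, 224, 204 and 347 CPM in untreated adenoma and 30.0, 56.7 and 27.6 CPM under sulindac, and the treated samples were below both groups (log2 fold change -6.68 against MIN and -2.76 against adenoma; adjusted p = 9.71e-07 and 0.000485, edgeR). Defensins are the antimicrobial peptides of Paneth cells. Defa24 had 3418, 3545 and 4301 CPM in MIN and 3.33, 3.18 and 5.55 CPM under sulindac (log2 fold change -9.86, standard error 0.28, adjusted p = 4.38e-08, edgeR). Defa17 had 4228, 4252 and 4358 CPM in MIN and 9.77, 11.7 and 12.2 CPM under sulindac, and Defa2 had 2621, 3206 and 3452 CPM in MIN and 3.27, 5.38 and 6.11 CPM under sulindac. Defa3 had 351, 244 and 135 CPM in MIN and 0 counts in every sulindac sample, so it was at least 2615-fold lower. Defa-rs7 had 516, 459 and 411 CPM in MIN and 0, 17 and 0 counts under sulindac (log2 fold change -11.34, and -17.09 without sulindac replicate 2; adjusted p = 1.02e-06, edgeR). The division of reads among defensin genes is uncertain, since 28.1% to 100% of the 50-base stretches of these 5 genes also lie in transcripts of other genes. Mmp7, the protease that activates defensins, was the tested Paneth gene that was not called. It had 193, 181 and 188 CPM in MIN, 604, 676 and 833 CPM in untreated adenoma and 123, 184 and 165 CPM under sulindac, with a 95% interval of the log2 fold change against MIN from -0.56 to 0.05, and it fell below untreated adenoma (log2 fold change -2.16, standard error 0.17, adjusted p = 0.000148, edgeR).

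All 14 tested goblet cell genes were lower than in MIN, against 26.8% of all genes, with a median of -5.51. Fcgbp, a mucus protein, had 1016, 897 and 870.2 CPM in MIN and 27.5, 36.7 and 21.8 CPM under sulindac (log2 fold change -5.02, standard error 0.20, adjusted p = 2.34e-07, edgeR). Muc13, a membrane mucin, had 832, 929.7 and 1102 CPM in MIN and 23.6, 17.7 and 17.2 CPM under sulindac (log2 fold change -5.62, standard error 0.18, adjusted p = 6.62e-08, edgeR). Spink4, a secreted protease inhibitor of goblet cells, had 747, 607 and 629.5 CPM in MIN and 3.77, 2.02 and 1.6 CPM under sulindac (log2 fold change -8.08, standard error 0.31, adjusted p = 2.79e-07, edgeR). Zg16, a lectin of the mucus layer, had 1, 0 and 0 counts under sulindac against 49.4, 39.4 and 25.3 CPM in MIN, a MIN to sulindac ratio of 3745-fold (95% counting interval 672 to 147900) in pooled CPM. Its fitted log2 fold change was -11.45, and -13.52 without sulindac replicate 1.

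Enteroendocrine cells release gut hormones. Of 21 tested genes of this lineage 1 was higher and 19 were lower, against 23.0% and 26.8% of all genes. The median was -8.38 (-5.61 with the 14 genes at the floor set to their bound). Chgb, a granule protein of hormone-secreting cells, had 201, 248 and 439 CPM in MIN and 0.233, 0.0611 and 0.349 CPM under sulindac (log2 fold change -10.40, standard error 0.49, adjusted p = 8.83e-07, edgeR). Gcg, the gene of glucagon-like peptides, and Gip, the gene of gastric inhibitory polypeptide, had 0 counts in every sulindac sample, against 45.9, 33.0 and 55.6 CPM and 26.0, 10.6 and 16.4 CPM in MIN, so they were at least 482-fold and at least 190.3-fold lower. Neurog3, the transcription factor that commits cells to this lineage, had 17.4, 21.0 and 9.83 CPM in MIN and 0.900, 0.856 and 0.262 CPM under sulindac (log2 fold change -4.60, standard error 0.45, adjusted p = 4.76e-05, edgeR). The higher member was Isl1, a transcription factor, with 2.51, 1.35 and 1.99 CPM in MIN and 3.77, 6.91 and 5.82 CPM under sulindac. Its log2 fold change was 1.50 (adjusted p = 0.00254, edgeR), and the call was lost without sulindac replicate 2 or 3. Of 18 listed tuft cell genes 11 passed the filter, and 2 of these were higher and 6 were lower, against 23.0% and 26.8% of all genes. Dclk1, a kinase that marks tuft cells, had 1.85, 2.39 and 5.12 CPM in MIN and 1, 1 and 0 counts under sulindac, a MIN to sulindac ratio of 146-fold (95% counting interval 40.3 to 1214), while Ptgs1, also a tuft cell gene, was higher and is described with the prostaglandin genes. Avil, the actin-binding protein advillin of tuft cells, had 2.53, 2.16 and 3.70 CPM in MIN and 6.10, 7.06 and 16 CPM under sulindac (log2 fold change 1.80, standard error 0.40, adjusted p = 0.00434, edgeR), a call lost without MIN replicates 1 or 2, and Lrmp, a membrane protein of tuft cells, had 24, 51 and 66 counts in MIN and 0, 4 and 1 counts under sulindac.

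Genes of absorptive enterocytes were mostly lower too. Of 21 tested genes for brush border hydrolases and structure, 19 were lower and 1 was higher, against 26.8% and 23.0% of all genes. The median was -5.99. Sis, the sucrase-isomaltase that digests sugars, had 1539, 1671 and 1599 CPM in MIN, 2.19, 2.99 and 2.46 CPM in untreated adenoma and 0.433, 0.550 and 1.08 CPM under sulindac. The treated level was below both groups (log2 fold change -11.16 against MIN and -1.86 against adenoma; adjusted p = 1.97e-08 and 0.00528, edgeR). Mgam, the maltase-glucoamylase, had 1579, 1439 and 1613 CPM in MIN and 105, 119 and 126 CPM under sulindac (log2 fold change -3.73, standard error 0.11, adjusted p = 4.72e-08, edgeR). Enpep, an aminopeptidase, had 0, 1 and 3 counts under sulindac and 156, 158 and 163 CPM in MIN, a MIN to sulindac ratio of 3852-fold (95% counting interval 1504 to 14140). The fitted log2 fold change of Enpep was -11.80, and -13.01 without sulindac replicate 3. The higher member was Espn, an actin-bundling protein of microvilli, with 25.1, 22.7 and 19.7 CPM in MIN and 107, 99.0 and 86.3 CPM under sulindac (log2 fold change 2.11, standard error 0.12, adjusted p = 1.64e-06, edgeR). Of 22 genes of lipid absorption 18 were lower and 1 was higher, against 26.8% and 23.0% of all genes. The median was -6.18 (-5.71 with floor genes at their bound). Apoc3, an apolipoprotein, had 39.3, 39.7 and 25.9 CPM in MIN and 0 counts in every treated sample, at least 376-fold lower. Fabp1, the fatty acid carrier of enterocytes, had 771, 709 and 234 CPM in MIN and 0.200, 0.0917 and 0.611 CPM under sulindac. Its log2 fold change was -10.85, and -11.93 without sulindac replicate 3 (adjusted p = 5.37e-06, edgeR). Apoa4, another apolipoprotein, had 1381, 1007 and 418 CPM in MIN and 0.0667, 0.0611 and 1.13 CPM under sulindac (log2 fold change -11.05, and -13.77 without sulindac replicate 3; adjusted p = 1.21e-05, edgeR), with 60.9% of its 50-base stretches shared with other transcripts. Acsl5, an acyl-CoA synthetase, had 604, 615 and 787 CPM in MIN and 542, 611 and 584 CPM under sulindac, with an interval of the log2 fold change from -0.48 to 0.06, and it rose over the 399.8, 326 and 324 CPM of untreated adenoma (log2 fold change 0.73, standard error 0.12, adjusted p = 0.00259, edgeR).

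Of 24 tested nutrient transporters 20 were lower and 3 were higher, against 26.8% and 23.0% of all genes, with a median of -5.97. Of the 24, 8 were at the floor in 1 group. Where at least 10 counts were required in every sample, which removes genes near 0 in 1 group, 7 were lower. Slc5a1 (SGLT1), the glucose carrier of the brush border, had 656, 712 and 608 CPM in MIN and 8.93, 11.4 and 6.49 CPM under sulindac (log2 fold change -6.21, standard error 0.21, adjusted p = 1.11e-07, edgeR). Slc3a1, a subunit of the cystine and basic amino acid carrier, and Slc26a3, a chloride and bicarbonate exchanger, had 87.3, 81.0 and 60.8 CPM and 29.8, 26.5 and 18.3 CPM in MIN, and 1, 2 and 2 counts and 0, 1 and 0 counts under sulindac, MIN to sulindac ratios of 1497-fold (95% counting interval 641 to 4612) and 2442-fold (95% counting interval 438 to 96500). The fitted log2 fold change of Slc26a3 was -10.83, and -12.87 without sulindac replicate 2. Slc40a1 (ferroportin), the iron exporter, was among the higher genes, with 26.7, 19.0 and 26.6 CPM in MIN, 58.9, 46.0 and 46.7 CPM in untreated adenoma and 112, 123 and 107 CPM under sulindac, and the treated samples were above both groups (log2 fold change 2.24 and 1.18; adjusted p = 2.17e-06 and 0.000393, edgeR). Slc3a2, the heavy chain of amino acid exchangers including the cystine carrier, had 193, 209.7 and 304 CPM in MIN, 167, 157 and 145 CPM in adenoma and 462, 547 and 592 CPM under sulindac (log2 fold change 1.18 and 1.78; adjusted p = 0.000472 and 0.0001, edgeR). Of 26 listed mucosal defense genes 21 passed the filter, 6 of them at the floor in 1 group. Of the 21, 15 were lower and 1 was higher, against 26.8% and 23.0% of all genes. Pigr, the receptor that carries IgA across the epithelium, had 2242, 2701 and 2291 CPM in MIN and 0.433, 0.642 and 2.21 CPM under sulindac (log2 fold change -11.07, and -12.11 without sulindac replicate 3; adjusted p = 7.59e-07, edgeR). Reg1 and Reg3a, secreted lectins of the regenerating family, had 77.1, 91.7 and 41.6 CPM and 48.8, 47.1 and 21.5 CPM in MIN, and 0, 0 and 2 counts and 0, 0 and 1 counts under sulindac. Their fitted log2 fold changes were -11.52, and -14.36 without sulindac replicate 3, and -11.49, and -13.52 without sulindac replicate 3. Nlrp6, an inflammasome sensor of the gut epithelium, had 359.8, 338 and 341 CPM in MIN, 6.01, 2.63 and 3.06 CPM in untreated adenoma and 68.8, 68.1 and 30.3 CPM under sulindac. It was lower than in MIN and higher than in untreated adenoma (log2 fold change -2.64 and 3.84; adjusted p = 8.09e-05 and 0.000418, edgeR). The higher member was Tlr4, the receptor for bacterial lipopolysaccharide, with 0.778, 0.769 and 0.981 CPM in MIN and 20.9, 19.8 and 22.1 CPM under sulindac (log2 fold change 4.63, standard error 0.16, adjusted p = 9.42e-08, edgeR).

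Transcription factors of the intestine were mainly lower, 17 of 28 tested, and 4 were higher, against 26.8% and 23.0% of all genes. The median was -1.03. Cdx1, a homeobox factor of intestinal identity, had 91.0, 114 and 98.8 CPM in MIN and 0.0667, 0.153 and 0.0873 CPM under sulindac (log2 fold change -9.90, standard error 0.21, adjusted p = 9.25e-09, edgeR). Hnf4a, a nuclear receptor that drives enterocyte genes, had 1082, 1152 and 1271 CPM in MIN and 280.1, 251 and 218 CPM under sulindac (log2 fold change -2.23, standard error 0.12, adjusted p = 1.18e-06, edgeR). Pdx1, a homeobox factor of the duodenum and pancreas, was higher, with 0.389, 0.192 and 0.327 CPM in MIN, 10.3, 14.1 and 10.4 CPM in untreated adenoma and 14.1, 13.6 and 11.6 CPM under sulindac (log2 fold change 5.43, standard error 0.26, adjusted p = 5.17e-07, edgeR). Prdm1 (Blimp1), which marks the immature gut epithelium before weaning, had 1.48, 1.47 and 1.88 CPM in MIN and 14.8, 10.8 and 12.2 CPM under sulindac (log2 fold change 2.96, standard error 0.20, adjusted p = 3.86e-06, edgeR). Nr1i3 (CAR), a receptor for foreign compounds, had 10.1, 9.47 and 14.7 CPM in MIN and 1, 0 and 1 counts under sulindac, a MIN to sulindac ratio of 544-fold (95% counting interval 150.3 to 4495), with 63.6% of its stretches shared. Elf3, the most counted factor of the list, had 384, 400.2 and 396 CPM in MIN and 355, 313 and 284 CPM under sulindac and was not called (log2 fold change -0.31, adjusted p = 0.0233, edgeR; -0.41 and 0.00962 without sulindac replicate 1). Of 36 Hox genes, which record position along the body axis, 14 passed the filter. Of these 5 were higher and 7 were lower, against 23.0% and 26.8% of all genes. Hoxa13 had 0 counts in every MIN sample and 1.13, 1.25 and 1.31 CPM under sulindac, at least 16.9-fold higher. Hoxa10 had 1, 1 and 0 counts in MIN and 8.60, 10.3 and 8.55 CPM under sulindac, a sulindac to MIN ratio of 571-fold (95% counting interval 158 to 4724). Hoxb4 went the other way, with 0.608, 0.513 and 1.01 CPM in MIN and 0 counts in every treated sample, at least 7.63-fold lower. Hoxa3 had 4.70, 6.03 and 6.97 CPM in MIN and 1.10, 0.948 and 1.31 CPM under sulindac (log2 fold change -2.40, standard error 0.24, adjusted p = 4.7e-05, edgeR), and Hoxb9 had 33, 86 and 99 counts in MIN and 0, 0 and 2 counts under sulindac. The gut segment from which each culture came is not given in the sources used here.

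Proliferation genes were lower under sulindac than in MIN. Of 36 tested genes of DNA replication and mitosis 29 were lower and 0 were higher, against 26.8% of all genes, and the median was -0.81. For untreated adenoma against MIN, 4 of the 36 were lower, against 20.1% of all genes, and 0 were higher, with a median of -0.33. For sulindac against untreated adenoma 7 were lower, against 9.10% of all genes, and 0 were higher, with a median of -0.46. Mki67, the antigen Ki-67 of cycling cells, had 655, 626 and 490.1 CPM in MIN, 467, 413 and 264 CPM in untreated adenoma and 283, 273 and 293 CPM under sulindac. MIN and treated samples did not overlap (log2 fold change -1.06, standard error 0.12, adjusted p = 9.35e-05, edgeR), while the difference between treated and untreated adenoma was not called (log2 fold change -0.43, adjusted p = 0.127, edgeR). Top2a, the topoisomerase of dividing cells, had 648, 664 and 526 CPM in MIN and 280.0, 335 and 309 CPM under sulindac (log2 fold change -0.997, standard error 0.12, adjusted p = 0.000115, edgeR). Tk1, the thymidine kinase of S phase, had 79.2, 88.7 and 62.6 CPM in MIN and 29.6, 33.6 and 22.9 CPM under sulindac (log2 fold change -1.43, standard error 0.17, adjusted p = 0.000127, edgeR). Bub1b, a kinase of the spindle checkpoint, had 129, 123 and 90.5 CPM in MIN, 84.3, 83.4 and 60.4 CPM in untreated adenoma and 41.2, 50.5 and 42.5 CPM under sulindac, and it was lower than in either group (log2 fold change -1.36 and -0.76; adjusted p = 6.68e-05 and 0.00608, edgeR).

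Of 27 tested CDK inhibitors and targets of the tumor suppressor p53, 15 were higher than in MIN and 3 were lower, against 23.0% and 26.8% of all genes. The median was 1.08, and the median for untreated adenoma against MIN was 1.06. Eda2r, a p53-induced receptor, had 3.70, 3.91 and 6.92 CPM in MIN, 97.5, 92.5 and 70.4 CPM in untreated adenoma and 68.8, 61.9 and 73.3 CPM under sulindac (log2 fold change 3.82, standard error 0.23, adjusted p = 3.72e-06, edgeR). Ccng1 (cyclin G1), another p53 target, had 159, 199.8 and 264 CPM in MIN and 617, 578 and 601 CPM under sulindac (log2 fold change 1.52, standard error 0.17, adjusted p = 8.09e-05, edgeR). Sesn1, sestrin 1, a p53 target, had 34.1, 36.4 and 36.5 CPM in MIN and 16.1, 17.7 and 14.2 CPM under sulindac, so it was lower (log2 fold change -1.16, standard error 0.11, adjusted p = 2.56e-05, edgeR), as was Cdkn1c, the CDK inhibitor p57, with 2.43, 2.27 and 1.96 CPM in MIN and 0.133, 0.0917 and 0.0291 CPM under sulindac (log2 fold change -4.69, standard error 0.42, adjusted p = 2.21e-05, edgeR). Cdkn1a, which encodes p21, had 172, 187 and 273 CPM in MIN and 270.1, 270.0 and 278 CPM under sulindac and was not called (log2 fold change 0.37, 95% interval 0.00 to 0.74; adjusted p = 0.0727, edgeR), but it was called as higher without MIN replicate 3 (log2 fold change 0.60, adjusted p = 0.000191, edgeR). Trp53 itself had 110.1, 121 and 97.1 CPM in MIN, 121, 133 and 124 CPM in untreated adenoma and 68.9, 86.6 and 65.1 CPM under sulindac, lower than in both groups (log2 fold change -0.58 and -0.77; adjusted p = 0.00357 and 0.00188, edgeR). The call against MIN was lost without MIN replicates 1 or 2 or sulindac replicates 1 or 3, with log2 fold changes of -0.58, -0.50, -0.54 and -0.50. In the BCL2 family and among death receptors, 6 of 23 tested genes were higher and 6 were lower, shares close to the 23.0% and 26.8% of all genes. Bcl2l1, the gene of the survival factor BCL-XL, had 35.4, 38.7 and 39.7 CPM in MIN, 189, 163 and 184 CPM in untreated adenoma and 276, 313 and 347 CPM under sulindac, and Bcl2l11, the gene of the death-promoting BIM, had 19.6, 20.0 and 19.7 CPM in MIN, 61.1, 66.2 and 54.1 CPM in adenoma and 116, 123 and 132 CPM under sulindac. Both were higher under sulindac than in MIN (log2 fold change 3.04 and 2.64; adjusted p = 1.11e-07 and 5.55e-08, edgeR). Both were also higher than in untreated adenoma (log2 fold change 0.81 and 1.04; adjusted p = 0.00143 and 0.000437, edgeR). Mcl1, a survival factor, had 115, 116 and 118 CPM in MIN and 205, 226 and 263 CPM under sulindac (log2 fold change 0.99, standard error 0.10, adjusted p = 4.76e-05, edgeR), and Bmf, a death-promoting member, had 8.25, 8.65 and 9.04 CPM in MIN and 2.27, 1.74 and 1.40 CPM under sulindac (log2 fold change -2.27, standard error 0.21, adjusted p = 2.82e-05, edgeR). Casp1, the caspase of inflammasomes, had 59.1, 66.2 and 72.7 CPM in MIN and 0.133, 0.0917 and 0.116 CPM under sulindac (log2 fold change -9.15, standard error 0.18, adjusted p = 8.18e-09, edgeR).

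Most genes of the antioxidant response were higher in the treated cultures than in MIN and than in untreated adenoma. The transcription factor NRF2 (Nfe2l2) is known to induce enzymes that make glutathione, reduce thioredoxin and supply NADPH. Of 25 tested genes on the NRF2 and antioxidant list 19 were higher than in MIN and 0 were lower, against 23.0% and 26.8% of all genes. The median was 1.20. In untreated adenoma against MIN, 2 were higher and 7 were lower, against 18.5% and 20.1% of all genes, with a median of -0.17. Under sulindac against untreated adenoma 20 of 25 were higher and 0 were lower, against 8.32% and 9.10%, with a median of 1.41. Gclc, the catalytic subunit of the enzyme that starts glutathione synthesis, had 167, 144 and 181 CPM in MIN, 213, 159 and 224 CPM in untreated adenoma and 2830, 2298 and 2833 CPM under sulindac. Each treated sample was above every sample of the other groups, while MIN and adenoma overlapped (log2 fold change 4.01, standard error 0.14, against MIN and 3.75 against adenoma; adjusted p = 1.09e-07 and 3.99e-05, edgeR). Gclm, the regulatory subunit of the same enzyme, had 108, 100.4 and 96.9 CPM in MIN, 91.6, 61.0 and 81.4 CPM in adenoma and 784, 772 and 718 CPM under sulindac (log2 fold change 2.89, standard error 0.09, adjusted p = 6.49e-08, edgeR). Slc7a11 (xCT), the carrier that brings in cystine for glutathione, had 92.1, 102 and 214 CPM in MIN, 122, 87.1 and 73.8 CPM in adenoma and 818, 743 and 1008 CPM under sulindac (log2 fold change 2.66, standard error 0.32, adjusted p = 0.000159, edgeR). Prdx1, a peroxide-reducing peroxiredoxin, had 1030, 990.4 and 864 CPM in MIN and 1691, 2060 and 1852 CPM under sulindac (log2 fold change 0.95, standard error 0.11, adjusted p = 0.000118, edgeR). Tkt, the transketolase of the pentose phosphate pathway, had 1123, 1219 and 1245 CPM in MIN, 758, 601 and 814 CPM in adenoma and 1914, 1816 and 1689 CPM under sulindac, higher than in either group (log2 fold change 0.59 and 1.33; adjusted p = 0.000747 and 0.000394, edgeR). Txnrd1, the thioredoxin reductase, and Nqo1, a quinone reductase, were picked after their values were seen. Txnrd1 had 502, 467 and 509.5 CPM in MIN and 1369, 1527 and 1421 CPM under sulindac (log2 fold change 1.54, standard error 0.09, adjusted p = 1.89e-06, edgeR), and Nqo1 had 94.6, 91.5 and 126 CPM in MIN and 436, 414 and 419 CPM under sulindac (log2 fold change 2.02, standard error 0.13, adjusted p = 2.88e-06, edgeR). Nfe2l2 itself had 246, 263 and 296 CPM in MIN and 347, 366 and 321 CPM under sulindac and was not called (log2 fold change 0.36, adjusted p = 0.0106, edgeR).

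The sequences before the start sites of 4 of these and the next group of genes are shown because these 4 genes were higher under sulindac than in MIN and their known regulators bind short motifs. They are the 250 bases before the annotated start in RefSeq (build GRCm38.p6), read on the strand of the gene, with capitals for the motif searched on both strands. For Gclm and Txnrd1 this was TGACNNNGC, the core of the antioxidant response element, and for Cyp1a1 and Cyp1b1 it was GCGTG, the core of the xenobiotic response element, and no match printed overlaps one of the other motif.
Gclm, chr3:122245307-122245556, + strand: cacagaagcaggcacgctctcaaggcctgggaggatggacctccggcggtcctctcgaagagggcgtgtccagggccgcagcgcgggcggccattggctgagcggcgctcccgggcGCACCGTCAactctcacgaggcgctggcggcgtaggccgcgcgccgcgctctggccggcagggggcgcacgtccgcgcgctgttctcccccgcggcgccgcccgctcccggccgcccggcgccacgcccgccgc
Txnrd1, chr10:82858956-82859205, + strand, 1 of its annotated starts: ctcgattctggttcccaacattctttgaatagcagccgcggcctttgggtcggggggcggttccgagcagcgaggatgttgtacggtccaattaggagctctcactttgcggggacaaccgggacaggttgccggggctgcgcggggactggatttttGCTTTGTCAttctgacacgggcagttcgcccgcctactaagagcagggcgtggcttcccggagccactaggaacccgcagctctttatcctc
Cyp1a1, chr9:57697363-57697612, + strand: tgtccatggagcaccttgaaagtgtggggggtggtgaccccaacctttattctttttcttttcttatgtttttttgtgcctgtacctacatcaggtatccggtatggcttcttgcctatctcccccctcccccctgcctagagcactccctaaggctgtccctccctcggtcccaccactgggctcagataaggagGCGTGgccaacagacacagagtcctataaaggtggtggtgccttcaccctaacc
Cyp1b1, chr17:79715062-79715311, - strand: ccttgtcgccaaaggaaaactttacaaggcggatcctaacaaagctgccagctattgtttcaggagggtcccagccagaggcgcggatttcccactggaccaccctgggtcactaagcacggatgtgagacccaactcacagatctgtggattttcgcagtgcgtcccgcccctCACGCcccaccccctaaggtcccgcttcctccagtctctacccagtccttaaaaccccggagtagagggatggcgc
The motif begins 134 bases before the start in Gclm and 92 bases before it in Txnrd1, in both on the opposite strand. It begins 54 bases before the start in Cyp1a1, on the same strand, and 76 bases before it in Cyp1b1, on the opposite strand. Only the motif named for each gene is in capitals, and the Gclm and Txnrd1 windows also hold the xenobiotic core in lower case. The antioxidant core was in 10.2% of all 32851 promoter entries and in 7 of 29 entries (24.1%) of the 22 genes of the NRF2 list that had one. The xenobiotic core was in 28.2% of all entries and in 10 of 46 entries (21.7%) of the 37 matched genes of the P450 and conjugation list. Where a gene had several annotated starts, the first whose window held the motif was printed, so a match in the printed windows was favored by the choice. Such matches describe the sequence only, and a window without a match says nothing about binding elsewhere.

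**Figure D4:**
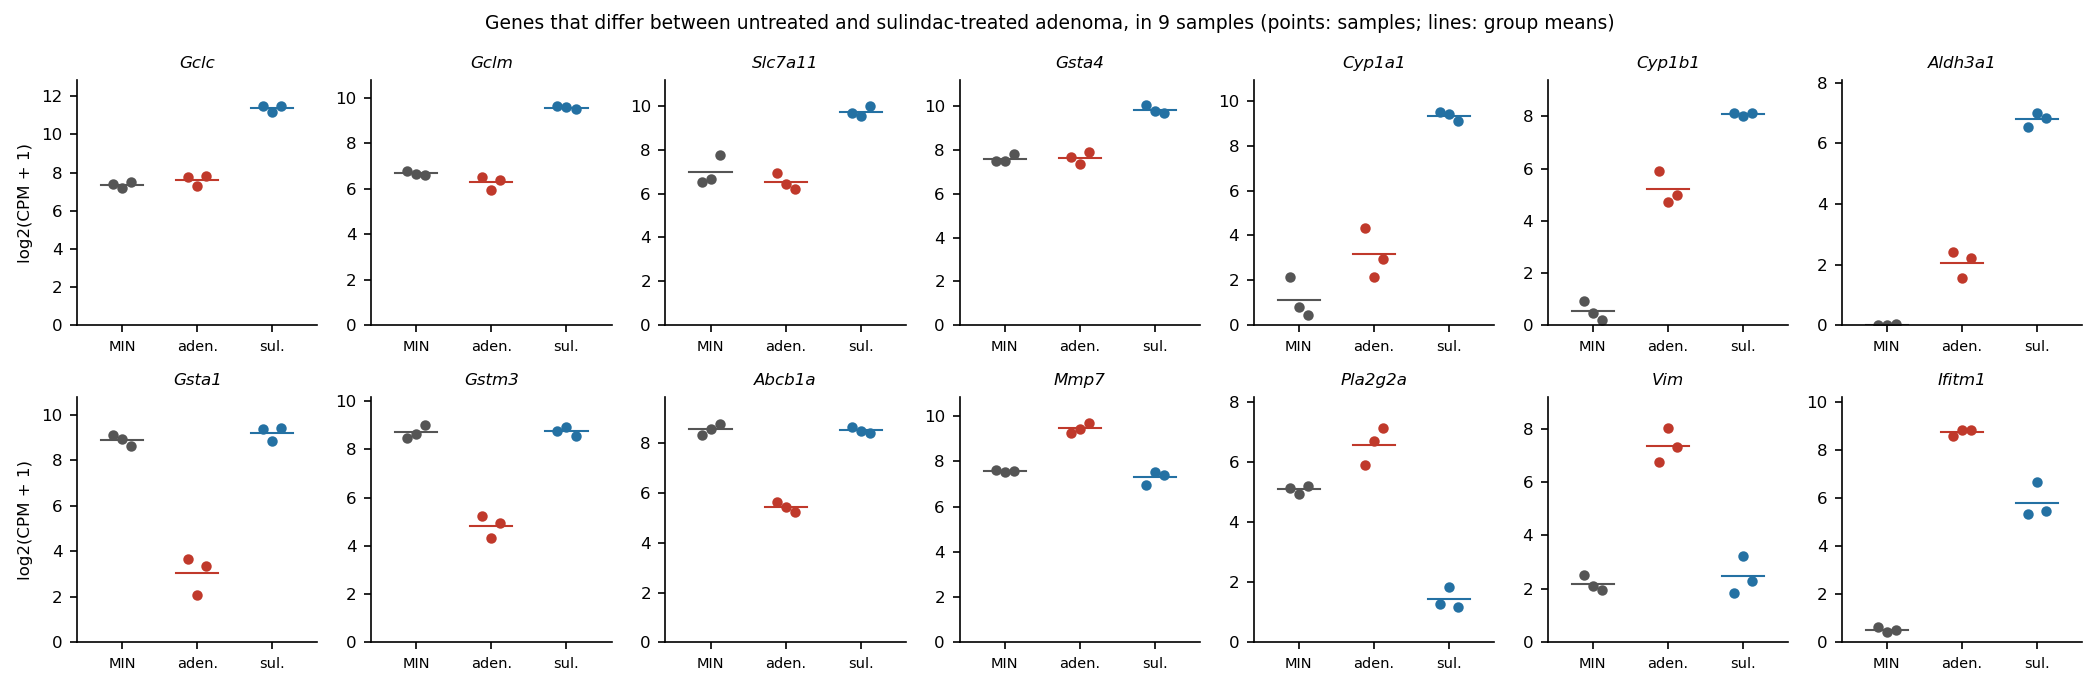
Expression of 14 genes as log2(CPM + 1) on the vertical axis in MIN, untreated adenoma (aden.) and sulindac-treated adenoma (sul.); points are samples, 3 per group, and lines are means of the plotted values. The first 7 genes were higher under sulindac than in either other group, Gsta1, Gstm3, Abcb1a, Mmp7 and Vim lay near MIN, Pla2g2a lay below MIN, and Ifitm1 lay between MIN and adenoma.

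Enzymes that process drugs and toxins showed several patterns. Cytochromes P450 oxidize such compounds, and transferases conjugate them to glutathione, glucuronic acid or sulfate. Of 37 tested members of this list 7 were higher and 21 were lower than in MIN, against 23.0% and 26.8% of all genes, with a median of -2.97. In untreated adenoma against MIN 2 were higher and 29 were lower, against 18.5% and 20.1% of all genes, with a median of -4.72. Of 31 tested between the tumor groups 20 were higher under sulindac, against 8.32% of all genes. The 3 that were lower were a share near the 9.10% of all genes. Cyp1a1, the monooxygenase known as a target of the aryl hydrocarbon receptor, had 3.48, 0.727 and 0.381 CPM in MIN, 19.4, 3.49 and 6.79 CPM in untreated adenoma and 714, 686 and 555 CPM under sulindac. All treated samples lay above all samples of the other groups, and the log2 fold change against MIN was 8.72 (standard error 0.66, adjusted p = 1.17e-05, edgeR) and 10.14 without MIN replicate 1. Cyp1b1, regulated by the same receptor, had 0.900, 0.385 and 0.136 CPM in MIN, 58.6, 25.3 and 30.9 CPM in adenoma and 281, 259.6 and 279 CPM under sulindac (log2 fold change 9.14, standard error 0.36, adjusted p = 3.3e-07, edgeR), and 9.94 without MIN replicate 1. Aldh3a1, an aldehyde dehydrogenase that is also a known target of this receptor and of NRF2, had 0, 0 and 1 counts in MIN, 4.38, 1.93 and 3.61 CPM in untreated adenoma and 92.1, 127 and 113 CPM under sulindac, a sulindac to MIN ratio of 13860-fold (95% counting interval 2486 to 547400). Its fitted log2 fold change was 13.24, and 15.00 without MIN replicate 3. Gsta4, a glutathione transferase for lipid aldehydes, had 179, 176 and 223 CPM in MIN, 205, 160.1 and 237 CPM in adenoma and 1048, 865 and 829 CPM under sulindac (log2 fold change 2.24, standard error 0.14, adjusted p = 2.21e-06, edgeR). Gstm1 of the mu class had 599.9, 647 and 1002 CPM in MIN and 2600, 3073 and 2309 CPM under sulindac (log2 fold change 1.82, standard error 0.20, adjusted p = 9.1e-05, edgeR). Ugt2b34, a glucuronosyltransferase, had 694, 803 and 992 CPM in MIN and 1284, 1472 and 1501 CPM under sulindac (log2 fold change 0.77, standard error 0.14, adjusted p = 0.00128, edgeR).

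Other members of this list lay near their MIN level under sulindac and far above untreated adenoma. They were picked by that pattern, so their values are a description. Gsta1 had 547, 493 and 399 CPM in MIN, 11.8, 3.21 and 9.31 CPM in untreated adenoma and 656, 469 and 689 CPM under sulindac, with a 95% interval of the log2 fold change of sulindac over MIN from -0.07 to 0.73. Its counts are uncertain, since 90.5% of its 50-base stretches also lie in other transcripts. Gstm3 had 357, 391 and 510.4 CPM in MIN, 36.2, 19.1 and 30.0 CPM in adenoma and 436, 490.1 and 378 CPM under sulindac, and the interval ran from -0.29 to 0.38. Abcb1a, the drug efflux pump P-glycoprotein, had 316, 381 and 434 CPM in MIN, 48.9, 42.5 and 36.5 CPM in adenoma and 394, 359 and 338 CPM under sulindac, with an interval from -0.34 to 0.23. Aldh1a7, an aldehyde dehydrogenase, had 63, 75.7 and 70.8 CPM in MIN, 11, 5.87 and 7.86 CPM in adenoma and 56.9, 65.1 and 80.7 CPM under sulindac, with an interval from -0.36 to 0.25. For these 4 genes treated and MIN samples overlapped, while untreated adenoma lay below all of them. Ugt1a1, which conjugates bilirubin, had 95.1, 103 and 113 CPM in MIN, 7.58, 13.2 and 9.16 CPM in adenoma and 75.1, 92.0 and 81.2 CPM under sulindac, with an interval from -0.55 to -0.10, which lies below 0. Its counts are uncertain too, since 80.2% of its 50-base stretches also lie in other transcripts. Other enzymes of the list stood at low levels with and without the drug. Adh1, an alcohol dehydrogenase, had 409.5, 438 and 216 CPM in MIN, 0.758, 0.950 and 1.30 CPM in untreated adenoma and 0.333, 0.550 and 0.582 CPM under sulindac (log2 fold change -9.48, standard error 0.39, adjusted p = 4.21e-07, edgeR), and Cyp3a11 had 52.4, 29.5 and 12.2 CPM in MIN and 2, 0 and 2 counts under sulindac, a MIN to sulindac ratio of 775-fold (95% counting interval 302 to 2844).

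The prostaglandin genes, which include the known targets of sulindac, were mixed, with 19 of 26 listed genes tested. Of these 6 were higher and 7 were lower, against 23.0% and 26.8% of all genes, with a median of -0.48. Ptgs1 (COX-1) had 0.243, 0.342 and 0.572 CPM in MIN, 35.2, 42.8 and 40.1 CPM in untreated adenoma and 22.5, 28.5 and 39.0 CPM under sulindac. All tumor samples lay above all MIN samples (log2 fold change 6.29, standard error 0.32, adjusted p = 1.06e-06, edgeR), and the difference between the tumor groups was not called (log2 fold change -0.38, adjusted p = 0.153, edgeR). Ptgs2 (COX-2) had 22, 20 and 29 counts in the MIN samples and 0 counts in each of the 6 tumor samples, so it was at least 6.28-fold lower under sulindac than in MIN. Abcc4 (MRP4), which exports prostaglandins and drug conjugates, had 35.4, 39.6 and 40.5 CPM in MIN, 77.4, 72.2 and 52.5 CPM in adenoma and 259, 284 and 313 CPM under sulindac, above both groups (log2 fold change 2.89 and 2.09; adjusted p = 1.09e-07 and 0.00014, edgeR). Ptges3, a cytosolic prostaglandin E synthase and co-chaperone, had 231, 233 and 274 CPM in MIN and 239, 295 and 262 CPM under sulindac, with an interval of the log2 fold change from -0.14 to 0.34. Cbr1, a carbonyl reductase that acts on prostaglandin E2, had 277, 304 and 375 CPM in MIN and 503, 518 and 423 CPM under sulindac (log2 fold change 0.59, standard error 0.13, adjusted p = 0.0038, edgeR), beside 94.8, 60.8 and 114 CPM in untreated adenoma, and the call against MIN was lost without MIN replicates 1 or 2 or sulindac replicates 1 or 2. Pla2g10, a secreted phospholipase, had 34, 33 and 20 counts in MIN and 0, 2 and 0 counts under sulindac.

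Parainflammation (PI) is a low-grade innate immune response of epithelial cells, and a signature of 40 genes for it was drawn from other mouse models by the study. Of its 35 tested genes 11 were higher under sulindac than in MIN and 6 were lower, with a median of 0.30, so that the share of higher genes was above the 23.0% over all genes and the share of lower genes was below 26.8%. In untreated adenoma against MIN 16 of 36 were higher and 2 were lower, against 18.5% and 20.1% of all genes, with a median of 0.56. Under sulindac against untreated adenoma 3 of 34 were higher, a share near the 8.32% of all genes, and 9 were lower, against 9.10% of all genes. Genes that were higher than in MIN under the drug included Ccnd1 and Il33, described above, and Icam1, the adhesion molecule for leukocytes. Icam1 had 0.632, 0.342 and 0.109 CPM in MIN, 8.42, 8.35 and 6.53 CPM in untreated adenoma and 3.93, 4.40 and 3.02 CPM under sulindac (log2 fold change 3.35, standard error 0.47, adjusted p = 0.000307, edgeR), with a log2 fold change of 3.99 without MIN replicate 1. It was lower than in untreated adenoma (log2 fold change -1.03, adjusted p = 0.00554, edgeR). Scarb1, a receptor for lipoproteins, had 26.1, 25.6 and 29.4 CPM in MIN, 66.5, 62.5 and 66.6 CPM in adenoma and 63.5, 66.7 and 61.5 CPM under sulindac (log2 fold change 1.24, standard error 0.09, adjusted p = 5.45e-06, edgeR). Pla2g2a, a secreted phospholipase, had 34.8, 30.0 and 36.2 CPM in MIN, 58.7, 103 and 139 CPM in untreated adenoma and 1.43, 2.63 and 1.25 CPM under sulindac. The treated samples lay below both groups (log2 fold change -4.25 against MIN and -5.81 against adenoma; adjusted p = 2.04e-06 and 8.72e-05, edgeR). Nox1, the NADPH oxidase of the colon, had 4.82, 14.5 and 6.21 CPM in MIN and 1, 0 and 0 counts under sulindac, a MIN to sulindac ratio of 862-fold (95% counting interval 154 to 34060). The fitted log2 fold change of Nox1 was -9.29, and -11.36 without sulindac replicate 1.

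Interferon-stimulated genes did not move one way between sulindac-treated adenoma and MIN. Of 36 listed genes 28 were tested, 7 were higher and 6 were lower, shares close to the 23.0% and 26.8% of all genes, and the median was 0.17. In untreated adenoma against MIN 10 of 31 were higher and 2 were lower, against 18.5% and 20.1%, with a median of 0.62. Under sulindac against untreated adenoma 0 of 30 were higher and 4 were lower, against 8.32% and 9.10%, with a median of -0.90. Ifitm1, a membrane protein that restricts viral entry, had 0.559, 0.363 and 0.436 CPM in MIN, 391, 460.2 and 466 CPM in untreated adenoma and 39.4, 103 and 42.9 CPM under sulindac. It was higher than in MIN and lower than in untreated adenoma (log2 fold change 7.08 and -2.83; adjusted p = 7.11e-06 and 0.000732, edgeR). Its paralog Ifitm3 had 87.1, 99.3 and 58.5 CPM in MIN, 691, 739 and 794 CPM in adenoma and 190.0, 344 and 173 CPM under sulindac (log2 fold change 1.52 against MIN and -1.65 against adenoma; adjusted p = 0.00192 and 0.00149, edgeR). The call for Ifitm3 against MIN was lost without MIN replicate 3 (log2 fold change 1.33, adjusted p = 0.0169, edgeR) and without the low-count filter (1.51, adjusted p = 0.0204, edgeR). Rsad2 (viperin), an antiviral enzyme, had 0.997, 0.598 and 1.01 CPM in MIN and 4.63, 2.87 and 4.25 CPM under sulindac (log2 fold change 2.18, standard error 0.31, adjusted p = 0.000312, edgeR). Ifitm2 had 155, 179 and 142 CPM in MIN and 249.8, 312 and 226 CPM under sulindac (log2 fold change 0.72, standard error 0.14, adjusted p = 0.0016, edgeR), with 48.5% of its stretches shared. Dhx58, the RNA helicase LGP2, had 2.65, 2.01 and 2.97 CPM in MIN and 0.767, 0.367 and 0.611 CPM under sulindac and was lower (log2 fold change -2.13, standard error 0.33, adjusted p = 0.000565, edgeR). Oas1a, an RNA sensor, was lower, with 9.76, 7.33 and 5.77 CPM in MIN and 1.57, 0.978 and 0.931 CPM under sulindac (log2 fold change -2.73, standard error 0.30, adjusted p = 6.53e-05, edgeR), and 57.6% of its 50-base stretches lie in other transcripts too. In antigen presentation 20 genes were listed and 15 were tested. Of these 10 were lower than in MIN and 3 were higher, against 26.8% and 23.0% of all genes, with a median of -0.91. H2-K1, a class I heavy chain, had 554, 517 and 483 CPM in MIN and 496, 560.4 and 493 CPM under sulindac, with an interval of the log2 fold change from -0.23 to 0.21. Tap1, a peptide transporter, was higher, with 14.2, 12.9 and 15.7 CPM in MIN and 23.2, 22.1 and 21.7 CPM under sulindac (log2 fold change 0.65, standard error 0.11, adjusted p = 0.00088, edgeR). Tapbp, tapasin, which loads peptides, had 45.3, 44.4 and 46.6 CPM in MIN and 59.4, 85.0 and 76.1 CPM under sulindac (log2 fold change 0.69, standard error 0.12, adjusted p = 0.00119, edgeR). H2-D1, a class I heavy chain, had 276, 244 and 235 CPM in MIN and 339, 347 and 334 CPM under sulindac (log2 fold change 0.43, standard error 0.09, adjusted p = 0.00265, edgeR), a call lost without MIN replicate 2 or sulindac replicate 1. Psmb8, a subunit of the immunoproteasome, had 85, 31 and 35 counts in MIN and 1, 0 and 2 counts under sulindac, a MIN to sulindac ratio of 39.2-fold (95% counting interval 13.2 to 192). H2-Ab1, a class II chain, had 3.53, 1.18 and 1.44 CPM in MIN and 0 counts in every treated sample, at least 22.0-fold lower. Of 25 listed chemokines, interleukins and receptors 14 were tested, and 4 were higher and 5 were lower, against 23.0% and 26.8% of all genes. Ccl25, the chemokine of the small intestine, had 125, 154 and 136 CPM in MIN and 5.07, 5.93 and 6.31 CPM under sulindac (log2 fold change -4.58, standard error 0.13, adjusted p = 3.3e-08, edgeR). Ccl9, another chemokine, had 15.4, 14.8 and 5.86 CPM in MIN and 1.30, 1.10 and 1.34 CPM under sulindac (log2 fold change -3.27, standard error 0.39, adjusted p = 0.000147, edgeR). Il1r1, the receptor of interleukin 1, had 0.219, 0.0855 and 0.0272 CPM in MIN and 3.53, 1.59 and 2.30 CPM under sulindac (log2 fold change 4.42, and 5.30 without MIN replicate 1; adjusted p = 0.000179, edgeR).

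In the Notch pathway and the secretory switch, 4 of 15 tested genes were higher and 9 were lower, against 23.0% and 26.8% of all genes. Jag1, a Notch ligand, had 17.4, 20.8 and 31.9 CPM in MIN and 95.5, 111 and 125 CPM under sulindac (log2 fold change 2.24, standard error 0.22, adjusted p = 4.61e-05, edgeR), and Notch3, a receptor, had 7.22, 7.12 and 8.63 CPM in MIN and 32.5, 29.2 and 34.4 CPM under sulindac (log2 fold change 2.06, standard error 0.12, adjusted p = 2.1e-06, edgeR). Jag2, another ligand, had 31.4, 31.8 and 55.8 CPM in MIN and 136, 116 and 130.5 CPM under sulindac (log2 fold change 1.68, standard error 0.22, adjusted p = 0.000235, edgeR), and Hes6, a transcriptional regulator of the pathway, had 66.0, 72.0 and 61.1 CPM in MIN, 266, 229.6 and 325 CPM in adenoma and 145, 153 and 122 CPM under sulindac (log2 fold change 1.07, standard error 0.11, adjusted p = 4.15e-05, edgeR). Dll3, a further ligand, had 1.07, 0.876 and 0.599 CPM in MIN and 2, 0 and 1 counts under sulindac, a MIN to sulindac ratio of 27.8-fold (95% counting interval 9.26 to 137). Of 11 tested genes of the EGF family 1 was higher (2 without MIN replicate 3) and 3 were lower, against 23.0% and 26.8% of all genes. Tgfa, transforming growth factor alpha, the higher one, had 40.2, 43.8 and 41.3 CPM in MIN and 71.8, 78.6 and 73.0 CPM under sulindac (log2 fold change 0.83, standard error 0.08, adjusted p = 3.26e-05, edgeR). Egf, the gene of epidermal growth factor itself, had 2.63, 2.09 and 2.21 CPM in MIN and 0.200, 0.122 and 0.320 CPM under sulindac (log2 fold change -3.40, standard error 0.36, adjusted p = 6.17e-05, edgeR). Erbb3, a receptor of the family, had 152, 156 and 146 CPM in MIN and 129.8, 104 and 125 CPM under sulindac and was not called (log2 fold change -0.34, adjusted p = 0.0173, edgeR). Areg (amphiregulin), a growth factor, had 71.9, 70.5 and 246 CPM in MIN, 15.1, 10.4 and 18.4 CPM in untreated adenoma and 93.2, 128 and 164 CPM under sulindac, and the wide interval of its log2 fold change against MIN, from -1.09 to 1.07, goes with MIN replicate 3, without which it was 0.84 on the log2 scale. Ereg (epiregulin) had 8.83, 4.02 and 10.8 CPM in MIN and 0, 1 and 0 counts under sulindac, a MIN to sulindac ratio of 738-fold (95% counting interval 132 to 29200). The fitted log2 fold change of Ereg was -9.17, and -11.21 without sulindac replicate 2. Of 16 tested BMP genes 2 were higher and 5 were lower, against 23.0% and 26.8% of all genes. The number higher was 4 without MIN replicate 3 and 1 with any other sample left out, and 3 were lower without sulindac replicate 3. Among the lower genes was Bambi, a decoy receptor, with 10.5, 9.53 and 6.67 CPM in MIN, 2.39, 3.49 and 2.69 CPM in adenoma and 0.300, 0.856 and 0.407 CPM under sulindac (log2 fold change -4.09, standard error 0.37, adjusted p = 2.18e-05, edgeR). Bmp1, a protease that cleaves procollagen, had 2.82, 2.99 and 2.72 CPM in MIN and 7.37, 12 and 9.16 CPM under sulindac (log2 fold change 1.74, standard error 0.21, adjusted p = 0.000119, edgeR), and Bmp8b, a ligand, had 4.74, 4.27 and 17.2 CPM in MIN and 45.4, 37.5 and 42.4 CPM under sulindac (log2 fold change 2.27, standard error 0.49, adjusted p = 0.00379, edgeR), a call lost when any sample but MIN replicate 3 was left out. The ligand gene Bmp4 had 30, 35 and 35 counts in MIN and 1, 0 and 2 counts under sulindac, and Id2, a target of the pathway, had 65.9, 60.5 and 92.3 CPM in MIN and 139, 96.2 and 79.2 CPM under sulindac and was not called. For the receptor gene Bmpr1a the change was -0.33 on the log2 scale (adjusted p = 0.00679, edgeR), a call lost when any sample but sulindac replicate 2 was left out. For Eph receptors and ephrins the counts were 4 higher and 5 lower of 16, near the shares of all genes (23.0% and 26.8%). Ephb6, a receptor without kinase activity, had 0.0243, 0.0855 and 0 CPM in MIN and 4.23, 3.55 and 3.52 CPM under sulindac (log2 fold change 6.45, and 7.84 without MIN replicate 2; adjusted p = 1.15e-05, edgeR). Efna5, an ephrin ligand, had 0.0973, 0.150 and 0.136 CPM in MIN and 15.5, 8.99 and 11.9 CPM under sulindac (log2 fold change 6.52, standard error 0.33, adjusted p = 7.57e-07, edgeR), close to the 12, 9.78 and 8.90 CPM of untreated adenoma. Epha1, a receptor, had 45.9, 45.7 and 47.2 CPM in MIN and 16.5, 17.3 and 15.6 CPM under sulindac (log2 fold change -1.49, standard error 0.09, adjusted p = 1.73e-06, edgeR), Epha7 had 36, 68 and 30 counts in MIN and 1, 2 and 0 counts under sulindac, and Epha2 had 78.7, 66.0 and 144 CPM in MIN and 178, 126 and 156 CPM under sulindac, called only without MIN replicate 3 (log2 fold change 1.08, adjusted p = 0.000311, edgeR).

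Among integrins, claudins, keratins and vimentin 7 of 26 tested were higher and 10 were lower, against 23.0% and 26.8% of all genes. Krt20, a keratin of differentiated surface cells, had 174, 165 and 185 CPM in MIN and 1.23, 1.10 and 1.63 CPM under sulindac (log2 fold change -7.04, standard error 0.15, adjusted p = 9.24e-09, edgeR). Krt18, a keratin of simple epithelium, had 438, 500.0 and 716 CPM in MIN and 1305, 1204 and 1193 CPM under sulindac (log2 fold change 1.16, standard error 0.17, adjusted p = 0.000442, edgeR). Krt80, an epithelial keratin, had 1.05, 1.07 and 1.03 CPM in MIN and 7.33, 4.10 and 6.69 CPM under sulindac (log2 fold change 2.52, standard error 0.27, adjusted p = 6.54e-05, edgeR). Itgav, an integrin subunit, had 25.7, 22.6 and 28 CPM in MIN, 72.8, 61.9 and 61.9 CPM in adenoma and 122, 95.2 and 113 CPM under sulindac, above both (log2 fold change 2.11 and 0.75; adjusted p = 1.69e-06 and 0.00309, edgeR), and Itga1 had 19.1, 20.4 and 32.4 CPM in MIN and 0.367, 0.428 and 0.204 CPM under sulindac (log2 fold change -6.17, standard error 0.32, adjusted p = 1.07e-06, edgeR).

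Lists of metabolism, stress and early response genes were tested next. Of 19 tested glycolysis genes 3 were higher and 5 were lower, against 23.0% and 26.8% of all genes, with a median of 0.00. In this list 5 were higher without MIN replicate 3 and 3 were lower without sulindac replicate 2 or 3. Hk1, a hexokinase, had 82.2, 78.1 and 118 CPM in MIN, 173, 162 and 189 CPM in adenoma and 366, 308 and 328 CPM under sulindac (log2 fold change 1.85, standard error 0.16, adjusted p = 1.99e-05, edgeR). Gapdh, often used as a reference gene, had 5866, 6279 and 7272 CPM in MIN and 7768, 6998 and 6694 CPM under sulindac, with an interval of the log2 fold change from -0.13 to 0.41. Pgam1, a phosphoglycerate mutase, had 788, 798 and 718 CPM in MIN and 1834, 1822 and 1549 CPM under sulindac (log2 fold change 1.17, standard error 0.11, adjusted p = 2.34e-05, edgeR), and Pfkfb4, a regulator of glycolysis, had 42.9, 37.1 and 32.1 CPM in MIN and 10.6, 7.92 and 8.12 CPM under sulindac (log2 fold change -2.08, standard error 0.16, adjusted p = 9.16e-06, edgeR). Of 25 tested genes of cholesterol synthesis and uptake 3 were higher and 4 were lower, against 23.0% and 26.8% of all genes. In untreated adenoma against MIN 0 were higher and 10 were lower, against 18.5% and 20.1%. The genes higher under sulindac than in MIN were Cyp51, Sc5d and Ggps1, with log2 fold changes of 0.41, 0.45 and 0.47 (adjusted p = 0.00901, 0.00552 and 0.00257, edgeR). Each of these calls was lost when some of the samples were left out in turn, for Cyp51 with any of the 6. Without MIN replicate 3 the number lower was 7. Stard4, a sterol carrier, and Hsd17b7, a sterol reductase, were lower, with log2 fold changes of -0.56 and -0.64 (adjusted p = 0.000337 and 0.000466, edgeR). Of 26 tested genes of the ER stress and ATF4 responses 3 were higher and 6 were lower, shares below the 23.0% and 26.8% of all genes. Without MIN replicate 3 the number higher was 7, and it was 1 without MIN replicate 2 or sulindac replicates 2 or 3. In untreated adenoma against MIN 0 of the 26 were higher and 11 were lower, against 18.5% and 20.1% of all genes, with a median of -0.59. Under sulindac against untreated adenoma 9 were higher and 1 was lower, against 8.32% and 9.10%, with a median of 0.79. Gdf15, a stress cytokine known to be induced by NSAIDs, had 9.17, 19.3 and 56.2 CPM in MIN, 47.5, 109 and 209 CPM in untreated adenoma and 143, 232 and 264 CPM under sulindac. Its log2 fold change was 2.92 (adjusted p = 0.00437, edgeR), and 3.89 without MIN replicate 3, and the call was lost without MIN replicate 2 or sulindac replicates 2 or 3. Hsp90b1, an ER chaperone, had 833, 758 and 878 CPM in MIN and 521, 614 and 563 CPM under sulindac (log2 fold change -0.54, standard error 0.10, adjusted p = 0.00133, edgeR), and Atf5, a stress transcription factor, had 125, 153 and 237 CPM in MIN and 47.3, 81.2 and 96.2 CPM under sulindac (log2 fold change -1.20, standard error 0.29, adjusted p = 0.00757, edgeR), a call lost when any sample but MIN replicate 1 was left out. Shmt2, a mitochondrial enzyme of serine metabolism, had 321, 313 and 369 CPM in MIN and 121, 175 and 152 CPM under sulindac (log2 fold change -1.17, standard error 0.13, adjusted p = 9.65e-05, edgeR), and Ero1l, an oxidase for protein folding, had 1585, 1316 and 1967 CPM in MIN, 845, 652 and 781 CPM in adenoma and 2219, 1774 and 2003 CPM under sulindac, with an interval against MIN from -0.06 to 0.66. Among PPAR receptors and genes of fatty acid oxidation 2 of 25 were higher and 14 were lower, against 23.0% and 26.8% of all genes. The median was -0.77. Among the higher members was the receptor gene Ppard, with 58.8, 59.2 and 70.0 CPM in MIN and 109, 100.2 and 102 CPM under sulindac (log2 fold change 0.72, standard error 0.09, adjusted p = 0.000167, edgeR). Angptl4, a PPAR target that inhibits lipoprotein lipase, had 7.86, 6.17 and 5.47 CPM in MIN and 0, 0 and 1 counts under sulindac (fitted log2 fold change -8.90, and -10.93 without sulindac replicate 3), and Ucp2, a mitochondrial carrier, had 625, 667 and 497 CPM in MIN and 294, 306 and 241 CPM under sulindac (log2 fold change -1.09, standard error 0.14, adjusted p = 0.000173, edgeR). Among AP-1 and immediate early genes 5 of 21 were higher and 4 were lower, against 23.0% and 26.8% of all genes, and 9 were higher without MIN replicate 3. Dusp4, a MAP kinase phosphatase, had 50.9, 61.6 and 78.4 CPM in MIN, 72.3, 68.3 and 73.7 CPM in adenoma and 198, 163 and 189.6 CPM under sulindac (log2 fold change 1.52, standard error 0.16, adjusted p = 5.53e-05, edgeR). Phlda1, an immediate early gene product, had 103, 114 and 140.1 CPM in MIN and 319.5, 354 and 341 CPM under sulindac (log2 fold change 1.50, standard error 0.12, adjusted p = 9.64e-06, edgeR), and Ier3, another, had 18.9, 17.9 and 41.7 CPM in MIN and 89.2, 69.5 and 82.1 CPM under sulindac (log2 fold change 1.62, standard error 0.31, adjusted p = 0.002, edgeR), a call lost without MIN replicate 2 or sulindac replicate 3. Fos, the AP-1 subunit, had 16, 19.8 and 46.5 CPM in MIN and 4.40, 3.00 and 3.69 CPM under sulindac (log2 fold change -2.89, and -2.29 without MIN replicate 3; adjusted p = 0.000402, edgeR), and Spry4, an inhibitor of receptor signaling, had 4.21, 3.93 and 5.53 CPM in MIN and 1.47, 1.56 and 1.37 CPM under sulindac (log2 fold change -1.64, standard error 0.22, adjusted p = 0.00025, edgeR).

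Over all genes, those with the largest fitted increase that were called, did not overlap and reached a mean of 5 CPM were Aldh3a1, Clec2f, Serpinb11, Prom2, Wnt7b, Aox1, Cyp1b1 and Cryab. Prom2, a membrane protein of epithelial protrusions, had 0.122, 0.0641 and 0.109 CPM in MIN and 76.3, 77.4 and 81.5 CPM under sulindac (log2 fold change 9.61, standard error 0.17, adjusted p = 4.19e-09, edgeR), and Wnt7b, a Wnt ligand, had 0.122, 0.0427 and 0.0545 CPM in MIN and 60.3, 52.4 and 62.2 CPM under sulindac (log2 fold change 9.59, standard error 0.23, adjusted p = 1.53e-08, edgeR). Both had similar levels in untreated adenoma, 66.1, 78.5 and 65.5 CPM and 47.0, 48 and 56.5 CPM. Aox1, an aldehyde oxidase, had 2, 1 and 0 counts in MIN, 5.36, 3.58 and 4.16 CPM in adenoma and 16.4, 16.3 and 22.4 CPM under sulindac, a sulindac to MIN ratio of 769-fold (95% counting interval 263 to 3732). Its fitted log2 fold change was 9.39, and 10.22 without MIN replicate 1. The genes with the largest decrease by the same rule were Defa3, Gcg, Gip and Apoc3, given above, with Pde3a, Cyp2c29 and Cstf2t among the others. Pde3a, a phosphodiesterase, had 0 counts in all 6 tumor samples, against 21.8, 26.7 and 23.6 CPM in MIN, so under sulindac it was at least 258-fold lower. Cstf2t, an RNA 3' end processing factor, had 26.6, 16 and 15.7 CPM in MIN and 0 counts in every treated sample, at least 209-fold lower.

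In absolute CPM, called genes with the largest increase were Ftl1, Eef1a1, Aldoa, Bsg and Scd2. Ftl1, the ferritin light chain that stores iron, had 1830, 1814 and 2191 CPM in MIN, 3265, 2842 and 5080 CPM in untreated adenoma and 10230, 10560 and 9961 CPM under sulindac. Every treated sample was above every other sample (log2 fold change 2.40, standard error 0.12, adjusted p = 5.78e-07, edgeR), although 58.4% of its 50-base stretches are shared with other transcripts. Aldoa, an aldolase of glycolysis, had 2487, 2496 and 3012 CPM in MIN and 5720, 5413 and 5082 CPM under sulindac (log2 fold change 1.02, standard error 0.11, adjusted p = 8.21e-05, edgeR). Bsg (basigin), a partner of lactate carriers, had 1004, 1071 and 1681 CPM in MIN and 3792, 4765 and 4550 CPM under sulindac (log2 fold change 1.80, standard error 0.20, adjusted p = 8.7e-05, edgeR), and Scd2, a fatty acid desaturase, had 3680, 3177 and 2147 CPM in MIN and 5949, 6517 and 5785 CPM under sulindac (log2 fold change 1.01, standard error 0.19, adjusted p = 0.00149, edgeR). Eef1a1, a translation elongation factor, had 14540, 17240 and 17340 CPM in MIN and 20800, 25060 and 22200 CPM under sulindac, but its log2 fold change of 0.47 lost the call without MIN replicates 1 or 2 or any sulindac sample, where it lay between 0.39 and 0.52. The largest decreases in CPM were those of Lyz1, Itln1 and the defensin genes Defa17, Defa24 and Defa2.

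Some genes set the treated cultures apart from both MIN and untreated adenoma, which lay near each other. They were picked by this pattern, so the values are a description. Beside Gclc, Gclm and Gsta4, the higher genes were Fgf1, Vgf, Gbe1, Trim29 and Tsku, of which Vgf lost its call against MIN without MIN replicates 1 or 2 or sulindac replicate 1. Fgf1, a fibroblast growth factor, had 5.40, 5.19 and 6.26 CPM in MIN, 8.06, 6.96 and 4.86 CPM in adenoma and 40.5, 37.2 and 41.0 CPM under sulindac. Gbe1, the glycogen branching enzyme, had 21.1, 19.0 and 19.6 CPM in MIN, 21.7, 25.1 and 20.9 CPM in adenoma and 117, 119 and 98.1 CPM under sulindac. The lower genes were Cacna1c, Cyp2c68, Bhlha15, Angpt2, Pnliprp2, Pros1, Ppfia4 and Kcnh6. Bhlha15 (Mist1), a transcription factor of secretory cells, had 48.9, 50.4 and 28.2 CPM in MIN, 45.5, 46.7 and 29.0 CPM in adenoma and 1.87, 4.28 and 2.12 CPM under sulindac. Pnliprp2, a pancreatic lipase-related protein, had 70.5, 96.9 and 148 CPM in MIN, 37.2, 136 and 155 CPM in adenoma and 5.27, 12.2 and 6.17 CPM under sulindac. Angpt2, an angiopoietin, had 10.8, 13.8 and 9.42 CPM in MIN, 7.10, 18.3 and 13.2 CPM in adenoma and 0.367, 1.41 and 0.640 CPM under sulindac. For each of these lower genes the treated samples lay below all samples of the other groups, which the rule that picked them favored. Over all tested genes, sulindac samples did not overlap MIN for 9425 of 13551 genes and untreated adenoma for 6330 of 12962.

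A last set, also picked by pattern, lay near MIN under sulindac and was higher in untreated adenoma: Vim, Cd177, Gpr179, Megf6, Gpr182, Impg2, Lect2 and Aif1l. Vim (vimentin), an intermediate filament protein of mesenchymal cells, had 4.77, 3.29 and 2.91 CPM in MIN, 105, 260.1 and 158 CPM in untreated adenoma and 2.63, 8.50 and 3.93 CPM under sulindac, and the interval of its log2 fold change against MIN ran from -0.50 to 1.40, while the log2 fold change of 0.45 became -0.15 without sulindac replicate 2. Cd177, a surface glycoprotein, had 11.5, 10.5 and 17.8 CPM in MIN, 65.7, 232 and 212 CPM in adenoma and 5.30, 15.7 and 7.82 CPM under sulindac, with an interval from -1.33 to 0.40. Lect2, a secreted protein and known Wnt target in liver, had 0.778, 0.577 and 0.490 CPM in MIN, 3.73, 6.40 and 5.67 CPM in adenoma and 0.533, 1.34 and 0.611 CPM under sulindac, with an interval from -0.53 to 1.38. The intervals of these 3 genes were wide, so the values show that treated and MIN samples overlapped, not that their levels were equal. Genes of this kind that were lower in untreated adenoma were Gsta1, Gstm3, Ugt1a1, Abcb1a, Aldh1a7 and Areg, given above, with Ddc and Nupr1. Ddc, the decarboxylase of serotonin synthesis, had 79.9, 79.0 and 54.1 CPM in MIN, 11.8, 6.03 and 5.23 CPM in adenoma and 58.1, 56.9 and 43.2 CPM under sulindac, with an interval against MIN from -0.84 to -0.03. It was called as lower without MIN replicate 3 (log2 fold change -0.60, adjusted p = 0.00214, edgeR).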

How the data were processed

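RNA was extracted from organoid cultures and sequenced as standard Illumina libraries. The deposited table holds 1 value per gene symbol and sample as whole-number counts, and the submitters' processing notes name Bowtie2 2.2.4, RSEM and the mouse build mm9. How reads of near-identical genes were divided is not given in the sources used here. The table holds the first MIN sample in 3 columns, and the third, which is the sum of the other two, was used. Its 23955 rows include 27 symbols turned into dates, which were left unnamed.

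Counts of the 3 MIN and 3 sulindac samples were filtered (filterByExpr), scaled by TMM and tested with edgeR 4.0.16 (robust quasi-likelihood F test, R 4.3.3) with Benjamini-Hochberg adjustment over all genes tested and an FDR of 1%. Adenoma was compared with MIN, and sulindac with adenoma, in fits of their own. These comparisons share samples, so their values were only set side by side. Standard errors were obtained from the fold change and its F statistic, and intervals are 95% intervals. Where 1 group held 0 counts in all samples, the fold is a bound against 3 counts per library, and where it held at most 3 counts in each, it is a ratio of pooled CPM with an exact Poisson interval. Both cover counting error only. The fit was tested on simulated data.

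The 37 gene lists (803 symbols, 799 in the table) and the members were chosen with earlier results of these data known, and the parainflammation list was taken from the study. Genes were named by rule: from each list up to 2 called genes without overlap of the groups at either end of the fold changes and up to 2 with the most counts; over all genes the 8 with the largest change in each direction at a mean of at least 5 CPM, and the 5 with the largest difference in CPM; up to 8 genes per direction apart from both other groups or near MIN, within a log2 fold change of 0.5; and Apc, Csnk1a1, Epcam, Lgr5, Ptgs1, Ptgs2, Ptprc and Trp53. Xist, Ddx3y, Eif2s3y, Col1a2, Col3a1, Nqo1, Txnrd1, Nfe2l2 and the 4 genes with printed promoters were picked after values were seen. A few genes that the rule picks are not reported here. Shared sequence is the percentage of the 50-base stretches of a gene that also occur in GENCODE M21 transcripts of other genes. Alternatives were other scaling, filters, samples in the fit, a replicate block, DESeq2 1.42.0, thresholds and leaving out each sample.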

Additional observations from a re-analysis of the deposited data

How the results depend on the processing

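For sulindac-treated adenoma against MIN, 3114 genes were higher and 3625 were lower. With a minimum change of 2-fold these counts were 1501 and 2104, and with 1 sample left out they ranged from 2430 to 3405 and from 2912 to 3909. RLE size factors, library size alone, other low-count filters, a fit of all 9 samples, DESeq2 and an FDR of 5% gave counts over all genes within 1.5 times of these. Counts of list members depended more on the filter. Requiring at least 10 counts in every sample removes genes near 0 in 1 group. The number lower then went from 19 to 1 for enteroendocrine genes, from 20 to 7 for nutrient transporters and from 15 to 5 for mucosal defense. It went from 19 to 10 for the brush border list and from 18 to 9 for lipid absorption. For adenoma against MIN, the leave-one-out counts ranged from 1885 to 2441 and from 2238 to 2762. For sulindac-treated against untreated adenoma, 1078 were higher and 1179 lower, and the counts were 603 and 1983 with library size alone, 2034 and 2374 at an FDR of 5%, 365 and 703 with a minimum of 2-fold, and 423 to 1403 and 386 to 1488 with 1 sample left out. DESeq2 called 1778 as higher. The cause was not tested. Library size alone moved the median log2 fold change to -0.18 for sulindac against adenoma and to 0.12 for adenoma against MIN. A replicate block gave 3280 and 3791 calls for sulindac against MIN. The same-numbered samples of that comparison had correlations of -0.048, 0.322 and 0.199 in their deviations from the group means, and sulindac replicate 1 correlated best with another MIN replicate. They were 0.097, 0.079 and 0.186 for adenoma against MIN, where every sample correlated best with its own number, and 0.254, 0.228 and -0.025 for sulindac against adenoma. Since not every pair exceeded 0.1 and no source says what a number marks, the numbers were not taken to pair the samples, and the correlations are a hint only. Of 228 named genes tested 193 were called, 0 changed direction after a call, and 38 lost the call in some alternative, 20 of them with a sample left out. The 3 samples per group limit the precision, and genes near the floor of 3 counts cannot show a difference at this depth.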
